A study of Homo sapiens with 6 samples.

Results

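The genes described here are the noncoding snoRNA host genes, long noncoding RNA genes whose introns hold small nucleolar RNAs (snoRNAs). They were chosen by name, as every GENCODE gene called SNHG followed by a digit together with GAS5, DANCR, ZFAS1 and EPB41L4A-AS1, which gave 32 of the 62252 genes with quantified transcripts. All 32 are annotated as long noncoding RNA, and each holds at least 1 annotated snoRNA on its own strand, from 1 in SNHG8 to 84 in SNHG14. Poly(A)-selected RNA was sequenced from human K562 cells, an erythroid leukemia line, after overnight treatment with 10 µM of the iron chelator 21H7 (Chelator, 3 libraries) or with the same volume of DMSO alone (DMSO, 3 libraries). The series describes the libraries of a group as biological replicates, and the comparison covers 1 cell line, 1 chelator, 1 dose and 1 time. It addresses how the RNA of these genes changed when iron was withdrawn.

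In a snoRNA host gene the exons are mostly a by-product. The introns are spliced out, and the snoRNA is trimmed from the excised intron and packed with its proteins into a particle that guides chemical modification of ribosomal or other stable RNAs. Box C/D snoRNAs guide 2′-O-methylation and box H/ACA snoRNAs guide pseudouridylation. The spliced host RNA goes to the cytoplasm, where ribosomes can engage its short open reading frames, and it is known in several of these genes, GAS5 first among them, as a target of nonsense-mediated decay (NMD), which depends on translation. Several host genes also begin with a terminal oligopyrimidine (TOP) tract, the run of C and T at the start of ribosomal protein genes that ties translation of their mRNAs to growth signals. Poly(A) selection captures the host RNA and not the mature snoRNA, so snoRNA levels are not analysed here. As these are bulk libraries, a change in RNA per cell cannot be told apart from a change in which cells made up the culture.

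The starts of leading isoforms are shown first, because pyrimidine runs at the start are a feature that the selection rule did not use. All 12 members with such a run are shown, and after them 3 of the 18 tested members without one. Each line gives 15 bases before and 15 bases from the annotated 5′ end of the isoform with the highest mean TPM, read 5′ to 3′ on the gene's strand of hg38 with GENCODE annotation, and capitals mark the longest run of C and T where it reaches 6 bases.
EPB41L4A-AS1-203, chr5:112160850-112160879, plus strand: ggacggaagcctgTCCTTTCTTCCTTTTgg
SNHG29-243, chr17:16438970-16438999, plus strand: TCCCCCTCCTTTTgtgaggattgggatatt
SNHG32-203, chr6:31834893-31834922, plus strand: gccccggcctcgccattttagTTCTTTTTg
SNHG8-203, chr4:118278688-118278717, plus strand: gcccctcgcggcgCTTCCCCCggaatagcg
ZFAS1-201, chr20:49278627-49278656, plus strand: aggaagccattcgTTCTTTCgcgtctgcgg
GAS5-255, chr1:173867981-173868010, minus strand: ggagcccaggcaccatactgTCTTTTCgag
SNHG1-260, chr11:62855872-62855901, minus strand: cccggggagattcgttctcaTTTTTCTact
SNHG7-205, chr9:136728164-136728193, minus strand: CTTCTCgtcctctgcgtgcgccggaggctg
DANCR-201, chr4:52712310-52712339, plus strand: gcggCCCTCCaccccgccccgctcaggatc
SNHG12-202, chr1:28581859-28581888, minus strand: tcgcggcttcagcgCCCTTTCTCCCCgccg
SNHG25-202, chr17:64145922-64145951, plus strand: tcagcgctggtctgCTCCTTTaaaagaacg
SNHG10-203, chr14:95534628-95534657, minus strand: gggtcaCCTCCTgatgaagtttccggttcc
SNHG5-277, chr6:85678734-85678763, minus strand: tataaggagctactggctgcgcacttcggt
SNHG4-202, chr5:139274116-139274145, plus strand: cctctgccggtgctgctgcgccctgcggag
SNHG30-204, chr17:35568035-35568064, plus strand: gcctcaggggcgcccacgtgacccgatggc

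The runs of EPB41L4A-AS1, SNHG8, ZFAS1, SNHG12 and SNHG25 span the annotated start, those of SNHG32, GAS5 and SNHG1 lie within the first 14 bases of the transcript, and those of SNHG29, SNHG7, DANCR and SNHG10 lie wholly upstream of it. SNHG5, SNHG4 and SNHG30 have no run of 6 bases in the window. A run of at least 6 bases was present in 8 of the 12 members called higher, 1 of the 5 called lower and 3 of the 13 not called (the calls are given below). Among the leading isoforms of all 24542 genes with an adjusted p, 29.5% had such a run, and of the 79 cytosolic ribosomal protein genes 59 (74.7%) had one. A run of these letters is a description of the annotated start and says nothing of where transcription began in these cells.

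The libraries held 90.4 M, 84.2 M and 78.6 M estimated counts in DMSO and 96.4 M, 101 M and 85.4 M in Chelator. The members took between 0.129% and 0.144% of the counts in DMSO and between 0.167% and 0.202% in Chelator, and their summed TPM (a level corrected for transcript length and depth) was 2446, 2346 and 2293 in DMSO and 3385, 4232 and 4134 in Chelator. TFRC, the transferrin receptor mRNA that is stabilized in low iron, was higher in Chelator by a log2 fold change of 2.89 ± 0.10 (SE). The K562 markers GATA1, HBG1, HBG2, KLF1, TAL1 and LMO2 were at 42.9 TPM or more in every library, while of the markers of other cell types EPCAM stood at 45.6 to 68.8 TPM and ALB, CD3E, COL1A1 and INS at 2.1 TPM or less. Markers moved with treatment too, with log2 fold changes of -0.72 for KLF1, -0.72 for LMO2, -0.28 for TAL1, 0.24 for HBG1 and 0.37 for HBG2, and of -0.48 for EPCAM, 1.60 for COL1A1 and 1.97 for CD3E, and their part in the changes below was not tested. The groups also differed in the fragment length that the deposited effective lengths imply, with 253 to 265 bases among the DMSO libraries and 201 to 219 bases among the Chelator libraries. These ranges do not overlap, so treatment and fragment length cannot be told apart here, and short transcripts are the ones whose estimates depend on fragment length most.

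Members differed between the groups in both directions. Of the 30 members with enough counts to test, 12 were higher, 5 were lower and 13 were not called in Chelator, so that 17 were called where 37.7% of all genes were (DESeq2 Wald test, adjusted p under 0.05 with Benjamini-Hochberg adjustment over all genes), and SNHG18 and SNHG28 were too low to test. Over all 24542 genes with an adjusted p, 19.5% were called higher and 18.3% lower, against 40.0% and 16.7% of the members. With the further requirement of a log2 fold change above 1, SNHG9, SNHG5 and GAS5 were called higher and no member lower, where 8.18% and 2.6% of all genes were. The median log2 fold change was 0.06 over the 30 members and 0.02 over all genes. Library values of the groups did not overlap for 11 members with higher and 7 with lower values in Chelator, which 25.5% and 23.7% of all genes also showed. Centring the libraries on the mean log2 change shifted the median of all genes from 0.02 to -0.15 and the calls from 4774 higher and 4486 lower to 3385 and 6281. Under that centring the 17 called members kept their direction and their call, and the members called lower rose from 5 to 8 and those past the fold threshold from 3 to 5, with GAS5 no longer past it (0.90) and SNHG3 (-1.01), SNHG30 (-1.09) and SNHG31 (-1.28) past it on the lower side.

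**Figure D1:**
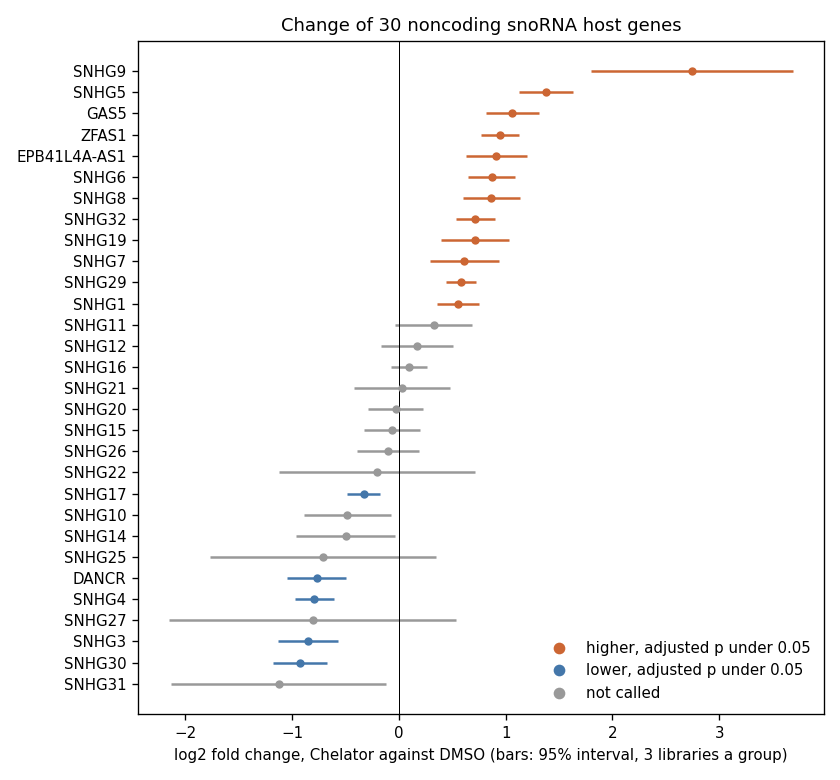
The log2 fold change of each of the 30 tested genes (Chelator against DMSO, horizontal axis) with its 95% interval from DESeq2 and 3 libraries a group. The 12 orange genes lie to the right of 0 from SNHG1 at 0.55 to SNHG9 at 2.74, the 5 blue genes to the left from SNHG17 at -0.33 to SNHG30 at -0.93, and the widest intervals belong to the genes with few counts.

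SNHG29 on chromosome 17, which hosts SNORD49A, SNORD49B and SNORD65, was the most abundant member. Its level was 645, 683 and 648 TPM in the DMSO libraries and 966, 1025 and 1033 TPM in the Chelator libraries, 659 ± 20.8 against 1008 ± 36.8 (SD, n = 3). Every Chelator library was above every DMSO library, and the log2 fold change of the normalized counts was 0.58 ± 0.07 (SE, adjusted p = 1.3e-15).

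SNHG5 on chromosome 6, host of SNORD50A and SNORD50B, rose from 436, 365 and 379 TPM in DMSO to 836, 1208 and 1120 TPM in Chelator, so that in the treated cells its mean level (1055 ± 194 TPM) stood beside that of SNHG29. The groups did not overlap, and the log2 fold change was 1.38 ± 0.13 (adjusted p = 7.33e-25), a 2.6-fold difference.

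GAS5, the growth arrest-specific RNA that holds 11 snoRNAs, stood at 171, 152 and 153 TPM in DMSO and at 267, 385 and 373 TPM in Chelator. All Chelator libraries were higher, the first of them least, and the log2 fold change was 1.06 ± 0.13 (adjusted p = 6.75e-16). Its place above the fold threshold was narrow. Leaving out single libraries gave 0.96 to 1.20, below 1 without DMSO replicate 2, Chelator replicate 2 or Chelator replicate 3, and it was 0.85 without correction for transcript length and 0.90 with centred libraries.

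The next 3 host genes of high abundance rose by similar amounts. SNHG32, host of SNORD48 and SNORD52, had 196, 187 and 186 TPM in DMSO and 287, 334 and 338 TPM in Chelator. SNHG6, host of SNORD87, had 150, 131 and 134 TPM in DMSO and 230, 283 and 267 TPM in Chelator. SNHG8, host of SNORA24, had 113, 87.4 and 99.96 TPM in DMSO and 166, 207 and 191 TPM in Chelator. None of the 3 overlapped between groups, and their log2 fold changes were 0.71 ± 0.09, 0.87 ± 0.11 and 0.87 ± 0.14.

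ZFAS1, host of the SNORD12 family, was at 90.8, 90.4 and 88.1 TPM in DMSO and at 162, 181 and 188 TPM in Chelator, with a log2 fold change of 0.94 ± 0.09 (adjusted p = 6.2e-24). SNHG1, which holds 9 snoRNA loci including SNORD25 to SNORD31, was at 63.7, 59.7 and 58.0 TPM in DMSO and at 80.7, 98.9 and 94.0 TPM in Chelator. The groups were again apart, with a log2 fold change of 0.55 ± 0.10, which fell to 0.25 (adjusted p = 0.0489) without correction for transcript length.

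Of the less abundant members, EPB41L4A-AS1, host of SNORA13, rose from 23.3 ± 3.06 to 45.2 ± 3.73 TPM, SNHG19, host of SNORD60, from 27.2 ± 1.4 to 45.8 ± 6.34 TPM, and SNHG7, host of SNORA17A and SNORA17B, from 10.9 ± 1.6 to 17.02 ± 4.31 TPM (SD, n = 3). The log2 fold changes of the normalized counts were 0.91 ± 0.15, 0.71 ± 0.16 and 0.61 ± 0.16. The libraries of SNHG7 overlapped, since Chelator replicate 1 at 1264 normalized counts lay under the highest DMSO library at 1302. SNHG9, host of SNORA78, had the largest fold change on few reads, with 15, 15 and 7 estimated counts in DMSO and 59, 113 and 113 in Chelator. Its groups did not overlap, and its log2 fold change was 2.74 ± 0.48 (adjusted p = 9.87e-08).

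**Figure D2:**
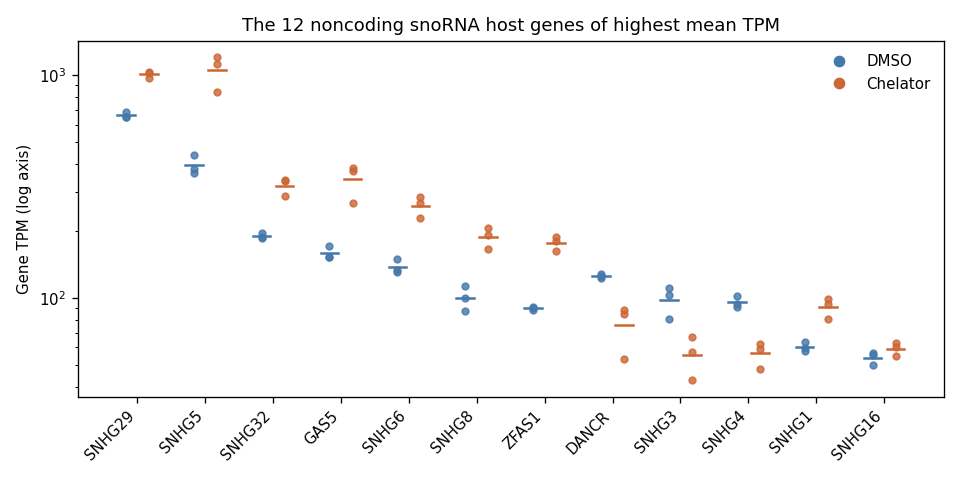
Gene level in TPM (log axis) in each library for the 12 noncoding snoRNA host genes of highest mean TPM, with DMSO in blue, Chelator in orange and a bar at each group mean. Orange points lie above blue ones for SNHG29, SNHG5, SNHG32, GAS5, SNHG6, SNHG8, ZFAS1 and SNHG1, below them for DANCR, SNHG3 and SNHG4, and among them for SNHG16.

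Of the 5 members that fell 1 holds a box C/D snoRNA (SNORD) and the others hold box H/ACA snoRNAs, where 8 of the 12 that rose and 5 of the 13 not called hold a SNORD. DANCR, host of SNORA26 and known for holding back differentiation, was at 123, 129 and 125 TPM in DMSO and at 53.3, 84.9 and 88.5 TPM in Chelator. SNHG4, host of SNORA74A and SNORA74D, was at 91.0, 102 and 93.6 TPM in DMSO and at 48.0, 58.9 and 62.5 TPM in Chelator. SNHG3, host of SNORA73A and SNORA73B, was at 111, 103 and 80.2 TPM in DMSO and at 42.7, 57.1 and 67.0 TPM in Chelator. In each of the 3 the lowest DMSO library was above the highest Chelator library, and the log2 fold changes were -0.77 ± 0.14, -0.79 ± 0.09 and -0.85 ± 0.14.

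The values of DANCR and SNHG3 rest on how very short transcripts are handled. The raw counts of SNHG3 overlapped (9059, 8089 and 7283 in DMSO against 5705, 8647 and 7535 in Chelator), and its log2 fold change was -0.39 without correction for transcript length and -0.37 when only transcripts of at least 300 bases were counted, a setting chosen after the data were seen. For DANCR the same settings gave -1.18 and -1.30. SNHG3 also overlaps RCC1 on the same strand, which had a log2 fold change of -0.47, and SNHG4 overlaps MATR3, for which 2 annotated genes had log2 fold changes of -0.28 and -0.86 (the second is the overlapping one). Of the 31-base words of their expressed transcripts, 13.1% in SNHG3 and 17.03% in SNHG4 occur in transcripts of other expressed genes, where reads could be assigned to either. Among the members called higher these shares were 19.99% in SNHG32, nearly all of it with ENSG00000285565, and 29.5% in SNHG7, mostly with DIPK1B on the opposite strand.

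SNHG30, host of SNORD7, fell from 31.1 ± 0.327 to 16.8 ± 3.02 TPM, with a log2 fold change of -0.93 ± 0.13 (adjusted p = 7.45e-12). SNHG17, host of SNORA71 family members, fell from 30.2 ± 1.77 to 24.5 ± 1.31 TPM, with a log2 fold change of -0.33 ± 0.08. Neither overlapped between the groups.

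For 13 members no change was called. SNHG16, the most abundant of them, was at 56.4, 55.7 and 50.1 TPM in DMSO and at 54.7, 62.6 and 60.3 TPM in Chelator, with overlapping groups and a 95% interval of the log2 fold change from -0.07 to 0.27. The intervals of SNHG15 (-0.32 to 0.20), SNHG20 (-0.29 to 0.22) and SNHG26 (-0.40 to 0.19) also stayed under 0.5 on either side. SNHG12 had a log2 fold change of 0.17 ± 0.17, SNHG11 of 0.33 ± 0.18, SNHG21 of 0.03 ± 0.23 and SNHG14 of -0.50 ± 0.24. SNHG10 was just outside the call, at -0.48 ± 0.21 (adjusted p = 0.052), and passed it under 7 of the 16 alternative settings. SNHG14 passed it without the length correction, with centred libraries and without DMSO replicate 1, SNHG31 with centred libraries and without Chelator replicate 1, SNHG11 without the length correction (0.43, adjusted p = 0.0141) and SNHG12 without Chelator replicate 1 (0.36, adjusted p = 0.0338). SNHG22, SNHG25, SNHG27 and SNHG31 had mean normalized counts of 24.0 to 40.7 and log2 fold changes of -0.20 to -1.13 with standard errors of 0.47 to 0.68, and a 2-fold fall lay inside the 95% interval of each.

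The members that rose were shorter than those that fell. The expression-weighted length was 352 to 1439 bases in the 12 that rose and 1078 to 1571 bases in the 5 that fell, and 10 of the 12 but none of the 5 were under 1000 bases, as were 4 of the 13 not called. Length went with a small shift in all genes as well. When genes averaging 100 or more normalized counts were binned by length, the bin from 500 to 750 bases (523 genes) had a median of 0.14 on the log2 scale, that from 1000 to 1500 bases (2142 genes) 0.05 and that from 2500 bases upwards (5747 genes) -0.11. Removing the trend with length and GC content changed no call among the 17 called members, and the fitted trend at the members that rose was between -0.07 and 0.14.

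Transcript usage was then compared within genes. A gene was called when its transcripts' counts shifted against each other (edgeR, adjusted p under 0.05 over all genes) and at least 1 transcript gained or lost more than 5 percentage points of mean TPM share. Of the 26 members tested 4 were called, SNHG5, SNHG32, SNHG29 and DANCR, while 9.22% of the 11938 genes tested were called. The calls of SNHG29 and DANCR rest on transcripts listed at 0 in DMSO, which met the count filter only through the Chelator libraries. The count was 9 with limma on log2 shares, which added GAS5, ZFAS1, SNHG7, SNHG10 and SNHG11, and 2 (SNHG5 and SNHG32) without Chelator replicate 3. In each of the 4 the transcript that gained was shorter than the one that lost, and the part of the fragment-length difference in these shifts was not tested.

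In SNHG5 the leading isoform SNHG5-277 (518 bases, 6 exons) kept its share, with 56.2%, 57.4% and 54.5% in DMSO and 59.2%, 56.4% and 51.5% in Chelator. SNHG5-283 (772 bases), which has the same start but a far more distant last exon, fell from 29.2%, 32.6% and 25.1% to 5.04%, 2.34% and 1.02%. SNHG5-202 (451 bases) rose from 2.35%, 2.22% and 1.34% to 6.55%, 20.3% and 27.9%. Those 2 isoforms were apart between groups in every library. Since the gene as a whole rose, the level of SNHG5-283 fell from 114 ± 16.7 to 27.3 ± 15.4 TPM while that of SNHG5-277 rose from 220 ± 21.7 to 585 ± 93.4 TPM.

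SNHG32 has a pair of leading isoforms from nearby starts, SNHG32-203 (847 bases) and SNHG32-204 (1053 bases), and a shorter one, SNHG32-209 (748 bases), that begins just downstream of the first. The share of SNHG32-209 rose from 7.28%, 5.89% and 9.57% in DMSO to 18.8%, 26.3% and 27.6% in Chelator, with no overlap. SNHG32-203 stayed near its level (38.3 ± 1.41% against 39.0 ± 3.24%), and SNHG32-204 was at 36.1 ± 1.77% against 22.9 ± 2.76%. In SNHG29 the leading isoform SNHG29-243 held 67.7 ± 0.392% and 69.6 ± 2.15%. The transcript that passed the threshold was SNHG29-259 (443 bases), listed at 0 in the 3 DMSO libraries and at 2.94%, 7.16% and 12.1% in Chelator. It entered the test only through the group where it was high, and with all libraries the call of SNHG29 rests on that selection. SNHG29 was not called without Chelator replicate 2 or without Chelator replicate 3.

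In DANCR the call came from DANCR-207, a transcript of 272 bases. It was listed at 0 in DMSO and at 10.2%, 34.5% and 40.4% of the gene's TPM in Chelator, but on only 28, 187 and 208 estimated counts. It thus passed the filter of 10 counts in 3 libraries only through the group where it was high, and the call of DANCR rests on that selection. The leading isoform DANCR-201 (987 bases) was at 108 ± 1.14 TPM in DMSO and at 44.5 ± 4.37 TPM in Chelator. The call of DANCR was lost when transcripts under 300 bases were left out or transcripts with fewer than 50 counts. It was also lost without any 1 of the Chelator libraries, since DANCR-207 then had counts in only 2 libraries and the test requires 3. SNHG3 shows the same dependence in the other group, since SNHG3-203 (185 bases) held 43.5 ± 7.38% of its TPM in DMSO and 22.1 ± 5.06% in Chelator on 11 to 59 estimated counts, and was not called.

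**Figure D3:**
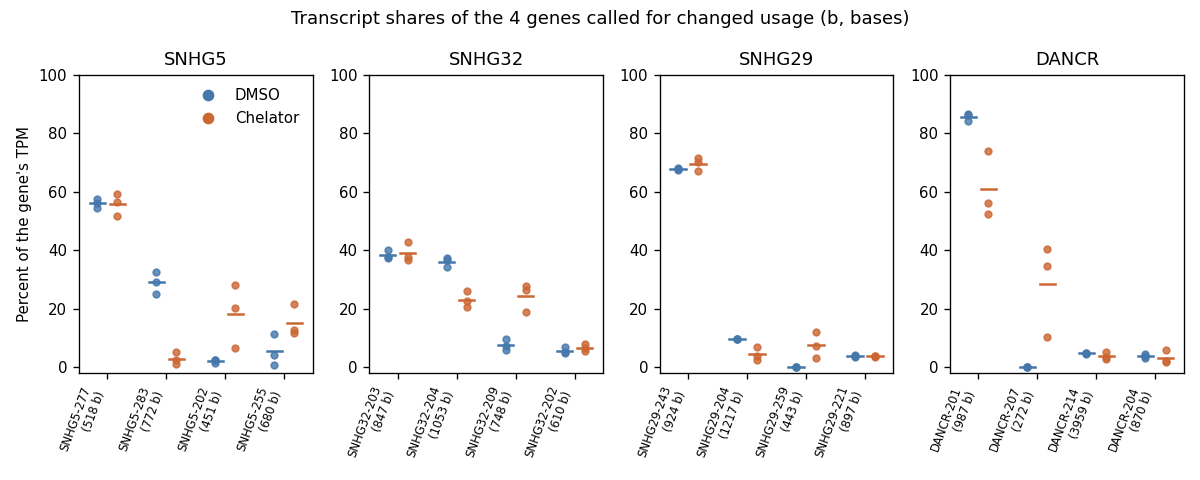
Percent of the gene's TPM held by the 4 transcripts with the largest share in SNHG5, SNHG32, SNHG29 and DANCR, 1 point a library and a bar at each group mean, with transcript lengths in bases (b). SNHG5-277, SNHG32-203 and SNHG29-243 hold similar shares in both groups, while SNHG5-283 and SNHG32-204 fall and SNHG5-202 and SNHG32-209 rise. DANCR-207 and SNHG29-259 are above 0 in Chelator only.

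The isoform with the highest mean TPM was the same in both groups in 22 of the 26 members tested. Over all 26, called or not, the share of the isoform that led in DMSO moved by more than 5 percentage points in 15 members and by more than 10 in 7. GAS5-255 (607 bases, 12 exons) held 42.1 ± 1.26% of GAS5 in DMSO and 49.7 ± 0.943% in Chelator, SNHG8-203 (337 bases) 53.0 ± 2.61% and 55.7 ± 2.06%, SNHG6-203 (639 bases) 55.9 ± 1.36% and 54.9 ± 2.51%, and SNHG19-201 (394 bases) 93.4 ± 3.34% and 97.5 ± 0.641%. SNHG10-203 went from 82.5 ± 3.44% to 49.3 ± 2.11% and SNHG30-201 from 56.5 ± 11.9% to 29.3 ± 8.91%, and the usage test called neither gene (adjusted p = 0.167 and 0.258). SNHG10 was called when tested with limma on log2 shares (adjusted p = 0.016) and when only transcripts with at least 50 counts were kept (adjusted p = 0.0287). SNHG9-201 went from 61.5 ± 18.5% to 93.3 ± 4.66%, SNHG7-205 from 33.2 ± 5.94% to 56.5 ± 5.35%, SNHG21-205 from 44.2 ± 11.8% to 26.4 ± 4.4% and SNHG15-203 from 30.5 ± 2.04% to 21.7 ± 3.38%, in genes that were not called, of which SNHG7 was called with limma (adjusted p = 0.0286).

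Host RNA can also be read by whether it still carries a snoRNA. A transcript whose exons hold a whole snoRNA still carries it and cannot have released that snoRNA by splicing. Such transcripts are counted here as snoRNA-retaining. Whether the exon spans an intron that other isoforms remove was not checked. The snoRNAs below are the ones kept by the transcript concerned in 4 genes where 1 transcript accounts for the whole retained signal, and they show what that transcript carries. Capitals mark the letters TGATG of box C within the first 18 bases and CTGA of box D within the last 14 bases in the C/D snoRNAs, or ACA within the last 6 bases in the H/ACA snoRNA, searched on the transcribed strand only. These letters were found in 72.1% of the 380 annotated SNORD loci and 81.7% of the 241 SNORA loci.
SNORD12 of ZFAS1, chr20:49280683-49280772, plus strand: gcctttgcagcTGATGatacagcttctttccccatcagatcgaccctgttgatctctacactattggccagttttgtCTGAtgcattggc
SNORD52 of SNHG32, chr6:31837076-31837142, plus strand: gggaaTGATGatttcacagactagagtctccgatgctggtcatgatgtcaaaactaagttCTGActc
SNORD60 of SNHG19, chr16:2155023-2155105, minus strand: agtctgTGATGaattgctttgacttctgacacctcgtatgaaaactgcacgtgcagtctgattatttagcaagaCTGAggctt
SNORA78 of SNHG9, chr16:1965184-1965310, plus strand: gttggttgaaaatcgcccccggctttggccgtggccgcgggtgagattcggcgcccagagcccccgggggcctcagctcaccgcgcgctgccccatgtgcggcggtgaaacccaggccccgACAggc

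The share of a gene's TPM in snoRNA-retaining transcripts fell in 8 of the 24 members tested and rose in 1 (limma on the log2 ratio of retaining to other transcripts, adjusted p under 0.05 over the 93 genes with both kinds annotated, in 2 of which, SNHG25 among them and neither called, 1 kind was at 0 in every library). Over all 93 genes 18.3% were called lower and 10.8% higher, and the median log2 ratio was -0.29 in the members and -0.07 in the 69 other genes. In ZFAS1 the share in ZFAS1-210, the transcript that keeps SNORD12, was 6.49%, 8.1% and 8.39% in DMSO and 1.84%, 1.95% and 1.91% in Chelator, with no overlap and a log2 ratio of -2.07 ± 0.14 (adjusted p = 0.00011).

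SNHG1 went from 52.6%, 46.2% and 50.3% in DMSO to 25.5%, 28.8% and 26.8% in Chelator over 49 retaining transcripts (log2 ratio -1.41 ± 0.15). SNHG32 went from 6.17%, 7.08% and 5.23% to 2.34%, 2.38% and 2.68% (-1.36 ± 0.15), and SNHG7 from 43.0%, 47.4% and 49.2% to 29.9%, 34.6% and 28.7% (-0.94 ± 0.17). These 3 and ZFAS1 kept their call when any single library was left out. With retained-intron annotation in place of snoRNA content, ZFAS1 kept its call and SNHG1 lost it (-0.36, adjusted p = 0.653). They differ in how their level moved. In SNHG1 the other transcripts went from 30.4 ± 1.65 to 66.4 ± 5.5 TPM while the retaining ones went from 30.1 ± 3.03 to 24.8 ± 3.98 TPM, and in ZFAS1 the other transcripts went from 82.9 ± 2.11 to 174 ± 13.3 TPM while the retaining one went from 6.87 ± 0.842 to 3.37 ± 0.337 TPM. In SNHG7 the retaining transcripts were at 5.03 ± 0.57 and 5.3 ± 1.49 TPM, and the others at 5.83 ± 1.12 and 11.7 ± 3.0 TPM.

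GAS5 (23.0 ± 1.74% to 15.4 ± 2.56%), SNHG12 (69.7 ± 2.49% to 60.5 ± 1.14%), SNHG19 (6.56 ± 3.34% to 2.5 ± 0.641%) and SNHG9 (38.5 ± 18.5% to 6.68 ± 4.66%) were also called lower. These 4 calls were not kept in every set of 5 libraries, while the ratios stayed between -0.87 and -0.59 in GAS5, between -0.66 and -0.49 in SNHG12, between -1.54 and -0.93 in SNHG19 and between -3.64 and -2.61 in SNHG9. GAS5 lost its call without DMSO replicate 1 or 2 or Chelator replicate 1 or 2, SNHG19 without DMSO replicate 1 or any Chelator library, SNHG12 without DMSO replicate 1 or 2 or any Chelator library, and SNHG9, with only 4 to 14 estimated counts in its retaining transcript, without Chelator replicate 2 or 3. In GAS5 the retaining transcripts were at 36.5 ± 4.42 and 53.5 ± 16.9 TPM and the others at 122 ± 7.04 and 288 ± 49.5 TPM, and in SNHG12 they were at 8.27 ± 1.04 and 8.3 ± 2.32 TPM and the others at 3.57 ± 0.034 and 5.4 ± 1.39 TPM. SNHG10 moved the other way. Its retaining share, nearly all of it the unspliced SNHG10-212 with SCARNA13, was 6.53%, 4.99% and 4.11% in DMSO and 30.4%, 29.8% and 28.9% in Chelator (log2 ratio 2.70 ± 0.17, adjusted p = 0.00011), a rise that held without any single library but not when transcripts annotated as retained introns took the place of snoRNA-retaining ones (0.60, adjusted p = 0.224). The opposite strand at SNHG10 carries GLRX5, a mitochondrial iron-sulfur cluster protein gene, and 9.22% of the SNHG10 words of 31 bases occur in it. Whether reads from GLRX5 entered the estimate was not tested, and GLRX5 itself had a log2 fold change of 0.02.

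**Figure D4:**
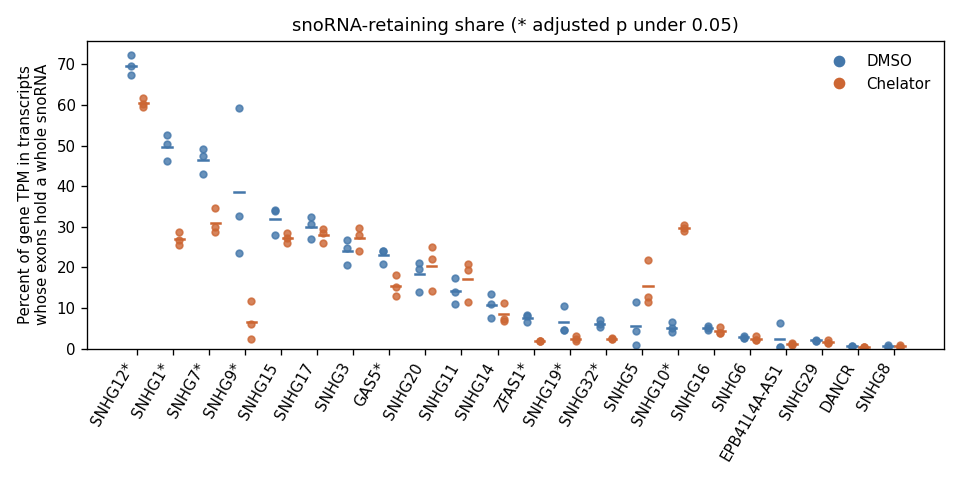
Percent of the gene's TPM in transcripts whose exons hold a whole snoRNA, 1 point a library, for 22 noncoding snoRNA host genes, with a bar at each group mean. Starred genes passed the test, and among them the orange Chelator points lie under the blue DMSO points in SNHG12, SNHG1, SNHG7, SNHG9, GAS5, ZFAS1, SNHG19 and SNHG32 and above them in SNHG10.

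In the other 15 members the share was not called. SNHG5 was at 4.34%, 1.03% and 11.4% in DMSO and at 21.8%, 12.7% and 11.6% in Chelator, mostly in SNHG5-255 with SNORD50A, and it was not called (log2 ratio 2.14 ± 0.85, adjusted p = 0.095). Leaving out single libraries gave ratios of 1.19 to 2.98, and without DMSO replicate 3 it was called (2.98, adjusted p = 0.035). SNHG3 was at 24.1 ± 3.07% and 27.3 ± 2.94%, and here too the short SNHG3-203 decides the direction, since without transcripts under 300 bases the log2 ratio was -0.47 (adjusted p = 0.0294). SNHG22 and SNHG25 were at 95.9% or more in every library. Of the 69 other host genes tested, 65 of them protein-coding, 9 were called lower and 9 higher.

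The gene groups around these RNAs moved as follows in the same comparison. Cytosolic ribosomal protein genes, whose mRNAs carry TOP tracts, were higher in 44 and lower in 2 of 79, with a median log2 fold change of 0.24. RPS19 was at 0.87 ± 0.12 and RPLP1 at 0.85 ± 0.10, against -0.32 ± 0.08 for RPL23 and -0.21 ± 0.09 for RPS15. Of 11 translation factor genes with TOP tracts 6 were higher, among them TPT1 (0.53 ± 0.07) and EIF3H (0.32 ± 0.09), and EIF4B (-0.17 ± 0.06) was lower. Both counts depended on scaling, since with centred libraries 21 ribosomal protein genes were higher and 6 lower and 1 factor was higher and 2 lower.

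Of 18 genes for snoRNP proteins and their assembly factors 14 had lower RNA and none higher, with a median log2 fold change of -0.34. NUFIP1, which helps assemble box C/D particles, was at -0.96 ± 0.11, and NOLC1, the nucleolar and coiled-body phosphoprotein, at -0.70 ± 0.07. The other 4 did not pass, among them FBL, the box C/D methyltransferase, at 0.04 ± 0.09 (adjusted p = 0.778). Of the 483 protein-coding snoRNA host genes tested 99 (20.5%) were higher and 159 (32.9%) lower, with a median of -0.07, and of 6758 other long noncoding RNA genes 10.8% were higher and 7.06% lower. With centred libraries 16 snoRNP genes were lower, 62 protein-coding hosts were higher and 208 lower, and the balance of the other long noncoding RNA genes turned, from 729 higher and 477 lower to 538 and 693.

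NMD factors and targets were measured alongside. Of 23 decay factor genes 9 were lower, among them PNRC2 (-0.64 ± 0.08), and DCP1A (0.52 ± 0.10), which acts in decapping, was the only one higher. With centred libraries 15 were lower, and the number higher was 0 without the length correction, 2 without DMSO replicate 2 and 3 with the length and GC trend removed. Of 5 protein-coding RNAs often used as decay targets 4 were higher, among them GADD45B (2.70 ± 0.26) and UPP1 (1.76 ± 0.30), and TBL2 (-0.33 ± 0.08) was lower, a call it lost without the length correction. GADD45B and UPP1 were at low levels, from 0.31 to 3.05 TPM and from 0.41 to 2.10 TPM over the libraries. Of 13 genes of the integrated stress response, the pathway that lowers translation initiation through phosphorylated eIF2α, 12 were higher and none lower, with ATF3 (2.57 ± 0.12) and PHGDH (2.32 ± 0.08) highest and CEBPB at 0.58 ± 0.09.

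**Figure D5:**
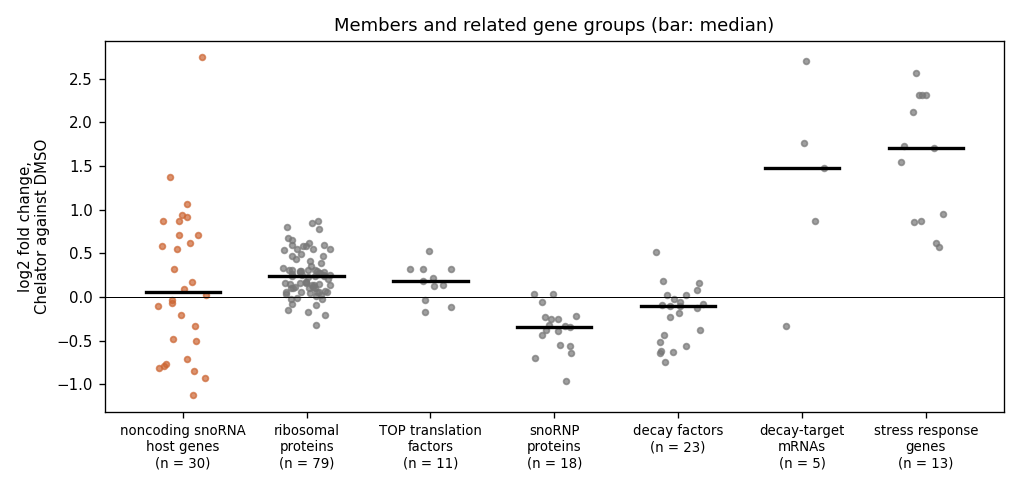
The log2 fold change (Chelator against DMSO) of each tested gene in 7 groups, with a black bar at each group's median. The 30 noncoding snoRNA host genes spread from -1.13 to 2.74 around a median of 0.06, the 79 ribosomal protein genes lie in a narrower band with a median of 0.24, the 18 snoRNP genes center on -0.34 and the 13 stress response genes on 1.70.

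Transcripts annotated as NMD targets held 2.22%, 2.41% and 2.32% of each library's TPM in DMSO and 2.74%, 3.04% and 3.14% in Chelator, and transcripts annotated as retained introns 5.21%, 5.62% and 5.45% against 6.03%, 6.53% and 6.68%. In both classes every Chelator library was higher. The exact two-sided permutation test over libraries gave p = 0.1 for each, the smallest value that 3 against 3 can give. The differences were 0.656 and 0.989 percentage points, and 0.572 to 0.773 and 0.856 to 1.18 when single libraries were left out.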

How the data were processed

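Poly(A)-selected paired-end RNA libraries of 3 DMSO and 3 Chelator (21H7) K562 cultures were used. Per the labels, the authors quantified transcripts with Salmon 1.10.2 on hg38, and the deposited tables give, for each transcript, estimated counts, TPM, length and effective length. The transcript set is not given in the sources used here. Of 252045 transcript rows, 251142 matched GENCODE release 44 in version and length, 470 matched otherwise, and the 433 unmatched rows held 0.139% to 0.15% of the counts. Tables were read without further normalization.

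Counts and TPM were summed per gene. Summed counts were rounded and tested with DESeq2 1.42.0 (Wald test) for genes with a total above 10, with median-ratio size factors and the average effective length of each gene and library as an offset. Transcript usage was tested with edgeR 4.0.16 (diffSpliceDGE, transcripts with at least 10 counts in 3 libraries), and the snoRNA-retaining share with limma 3.58.1 on log2((retaining TPM + 0.1)/(other TPM + 0.1)) in genes with a mean of at least 1 TPM. Errors of fold changes are standard errors. snoRNA positions came from GENCODE (991 loci) and RefSeq (451 further loci, with the strand assigned for 325). Whether counting used strand is not given, so antisense reads cannot be told apart. The members and all gene lists were chosen with earlier results of these data known. The rule for named genes gave fold changes for all members with at least 10 counts in 3 libraries, library values for the 12 of highest mean TPM and those past the fold threshold, isoforms of at least 20% share, and from each list the 2 largest rises and falls with a mean of at least 100 normalized counts. Isoforms that led a usage call and SNHG5-202 were named beside these. A few genes that the rule or the marker lists would name are not reported here. Scripts were tested on simulated data. Of 50 genes simulated at each log2 fold change among the 26074 genes tested, 29 were recovered at 0.5, 33 at 1, 40 at -0.5 and 47 at -1. The fold changes were given to blocks of genes in identifier order. Each size thus fell on a different set of genes, and recovery of rises and falls cannot be compared. Depth was 78.6 M to 101 M counts a library.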

Additional observations from a re-analysis of the deposited data

How the results depend on the processing

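Each of the 17 called members kept its direction and its call under every alternative except the test against a log2 fold change of 1, which left 1 member higher (SNHG9), 0 lower and 1 past the fold threshold. Members lower numbered 8 with centred libraries. Members past the fold threshold numbered 6 without the length offset (DANCR at -1.18 among them) and 5 with centred libraries. Leaving out single libraries gave 12 to 13 members higher, 5 to 6 lower, 2 to 4 past the fold threshold, 2 to 5 called for usage, and 4 to 8 lower and 1 to 2 higher in snoRNA-retaining share. The usage test called 9 members with limma on log2 shares. With retained-intron annotation in place of snoRNA content, 3 members (GAS5, SNHG3 and ZFAS1) were lower and 0 higher of 14 tested, against 8 and 1 of 24, where 111 genes were lower and 247 higher of 6946, against 17 and 10 of 93. SNHG1 (-0.36), SNHG10 (0.60) and SNHG12 (-0.69, adjusted p = 0.055) lost their calls there. The causes were not tested.

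Reversals were limited to members not called. For the log2 fold change these were SNHG20 (0.012 with edgeR and 0.012 with TMM factors), SNHG22 (0.070 without the length offset), SNHG16 (-0.062) and SNHG21 (-0.14) with centred libraries, and on leaving out libraries SNHG15 (-0.13 to 0.071), SNHG20 (-0.10 to 0.079), SNHG21 (-0.17 to 0.16), SNHG26 (-0.24 to 0.026) and SNHG27 (-1.18 to 0.20). For the log2 ratio of retaining transcripts they were SNHG14 (0.15) and DANCR (0.34) with a pseudocount of 1 TPM, SNHG29 (2.98), SNHG17 (0.12), SNHG5 (-1.39), SNHG14 (0.30) and SNHG3 (-1.10) with retained-intron annotation, DANCR (0.24) and SNHG3 (-0.47) with transcripts of at least 300 bases, a setting added after the data were seen, and on leaving out libraries SNHG14 (-0.35 to 0.14), EPB41L4A-AS1 (-0.92 to 0.70), SNHG20 (-0.036 to 0.45), SNHG22 (-0.45 to 0.22) and SNHG8 (-0.62 to 0.082).

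With the replicate number as a block, no call of the 17 members changed and SNHG10 was called lower, SNHG1 joined the usage calls, and GAS5, SNHG12 and SNHG19 left the share calls with unchanged ratios (adjusted p = 0.063, 0.063 and 0.054; the count of 6 lower includes SNHG25, whose ratio follows its level, since its other transcripts were at 0 in every library). The deviations of same-numbered libraries from their group means correlated at -0.02, 0.09 and 0.04 over 20144 genes. Those of differently numbered libraries correlated at -0.09 to 0.06. With 3 libraries a group these values cannot show whether the numbers pair the libraries. SNHG22, SNHG25, SNHG27 and SNHG31 had the fewest counts among the members not called.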
